A study of Homo sapiens with 4 samples.

Results

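The platelet-derived growth factor (PDGF) genes were examined in HGC-27, an established gastric carcinoma cell line, after knockdown of the deubiquitinase gene USP47. The 7 genes were chosen by their symbols as a gene family: the receptor genes PDGFRA and PDGFRB, the receptor-like gene PDGFRL, and the ligand genes PDGFA, PDGFB, PDGFC and PDGFD. The fall of PDGFRB in these data was already known when the family was chosen. All 7 were among the 63568 gene identifiers of the RNA-Seq files, and all 7 passed the filter on low counts that left 21932 genes for testing. The cells had been infected with lentivirus carrying either a scrambled control shRNA or an shRNA against USP47 and selected with puromycin as stable populations, with 2 libraries per group described as biological duplicates. Both groups therefore carried a lentiviral shRNA. The paper made its knockdown lines with 2 independent shRNAs and states that RNA for sequencing was taken in triplicate, whereas 2 libraries per group were available. Whether the 2 knockdown libraries held the same shRNA was not given in the sources used here. A difference between shRNAs may therefore be part of the spread between these libraries. The design text of the series also names the solvent DMSO for control cells, without saying to which experiment this applied.

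PDGFs are secreted dimers that bind receptor tyrosine kinases at the cell surface and thereby join receptor chains in pairs, which then phosphorylate each other and recruit signaling proteins. PDGFRα binds the A, B and C chains, and PDGFRβ binds the B and D chains. The A and B chains are cut to their active form inside the cell, whereas the C and D chains are secreted as latent forms that proteases activate outside it. In tissue, the receptors are best known from fibroblasts, pericytes and smooth muscle cells, and the ligands from epithelial and endothelial cells and platelets.

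RefSeq (GRCh38.p14) gave promoter windows, from 250 bases before to 50 bases after an annotated start, for 4 of the 7 genes. PDGFB, PDGFC and PDGFRL had none. The 250 bases before the start are shown for PDGFRB and for the second annotated start of PDGFRA, because these paralogs are the receptor pair compared below. They are written 5′ to 3′ on the strand of the gene, PDGFRB on the minus strand (chr5:150155846-150156095) and PDGFRA on the plus strand (chr4:54233710-54233959), with matches to the CCAAT box (CCAAT) and the GC box (GGGCGG, or CCGCCC on the other strand) in capitals.
PDGFRB: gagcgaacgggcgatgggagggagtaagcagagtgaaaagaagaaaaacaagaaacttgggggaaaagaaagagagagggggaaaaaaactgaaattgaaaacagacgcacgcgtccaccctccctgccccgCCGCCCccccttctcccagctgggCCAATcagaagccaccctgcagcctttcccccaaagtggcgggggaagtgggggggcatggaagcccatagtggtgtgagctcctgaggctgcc
PDGFRA: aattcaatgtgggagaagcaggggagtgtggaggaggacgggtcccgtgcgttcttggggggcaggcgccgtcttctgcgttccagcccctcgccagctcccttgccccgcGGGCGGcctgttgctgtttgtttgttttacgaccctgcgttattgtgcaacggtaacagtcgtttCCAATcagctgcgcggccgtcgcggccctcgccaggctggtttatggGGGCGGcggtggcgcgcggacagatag

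A search of both strands was made for 4 motifs: the CCAAT box, the GC box, an E-box (CAGGTG) and the TATA box (TATAAA). The PDGFRB window held 1 CCAAT box starting 94 bases before the start and 2 GC boxes on the other strand, 1 of them after the start. The window at the second PDGFRA start held 1 CCAAT box 74 bases before the start and 2 GC boxes as written, 139 and 27 bases before it. Both windows thus held the CCAAT box and the GC box, but with the GC boxes on opposite strands. The window at the first PDGFRA start held none of the 4 motifs, and the single PDGFD window held 1 GC box. Of the 4 windows at PDGFA starts, 3 held the E-box. Among all 35116 RefSeq windows of this length, 34.6% held a CCAAT box, 45.0% a GC box, 20.6% the E-box and 11.5% the TATA box. These matches are letters in the reference sequence, and no binding was measured.

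The libraries held between 15649899 and 20140273 counts on genes. Values are given as counts, as CPM (counts scaled to library size by TMM normalization) or as TPM (transcripts scaled to library total, which also accounts for gene length). USP47 itself was counted 1357 and 1297 times with control shRNA and 749 and 309 times with USP47 shRNA, so the knockdown libraries kept 49.3% and 29.5% of the control mean in CPM (log2 fold change -1.34, SE 0.21, adjusted p = 0.00362, edgeR's quasi-likelihood test). Groups were compared by this test with Benjamini-Hochberg adjustment over all 21932 genes, and a gene was called lower or higher at an adjusted p under 0.05.

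With USP47 shRNA, the transcripts of the ligand PDGFB and of its receptor PDGFRB fell most among the 7 genes, to 10.3% to 27.9% of their control means in single libraries. PDGFRA fell less, to 63.6% and 65.8%. PDGFA, PDGFC, PDGFD and PDGFRL did not pass the test. Thus 3 of the 7 genes (42.9%) were called lower by edgeR's quasi-likelihood test, against 9.56% of all genes tested, and 0 were called higher, against 6.52%. As the fall of PDGFRB was known beforehand, its call is no independent part of this share. At an unadjusted p under 0.05 the counts were 4 lower and 0 higher, for which no share over all genes was determined. DESeq2 called 3 lower, against 5.93% of all genes tested, and 0 higher, against 5.27%. For 5 of the 7 genes both knockdown libraries were lower than both controls, against 31.7% of all genes tested, and for 1 gene, PDGFC, both were higher, against 29.3%. The median log2 fold change was -0.63 over the 7 genes and -0.0083 over all genes tested. In these bulk libraries, fewer cells with a transcript and less of it per cell cannot be told apart.

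**Figure D1:**
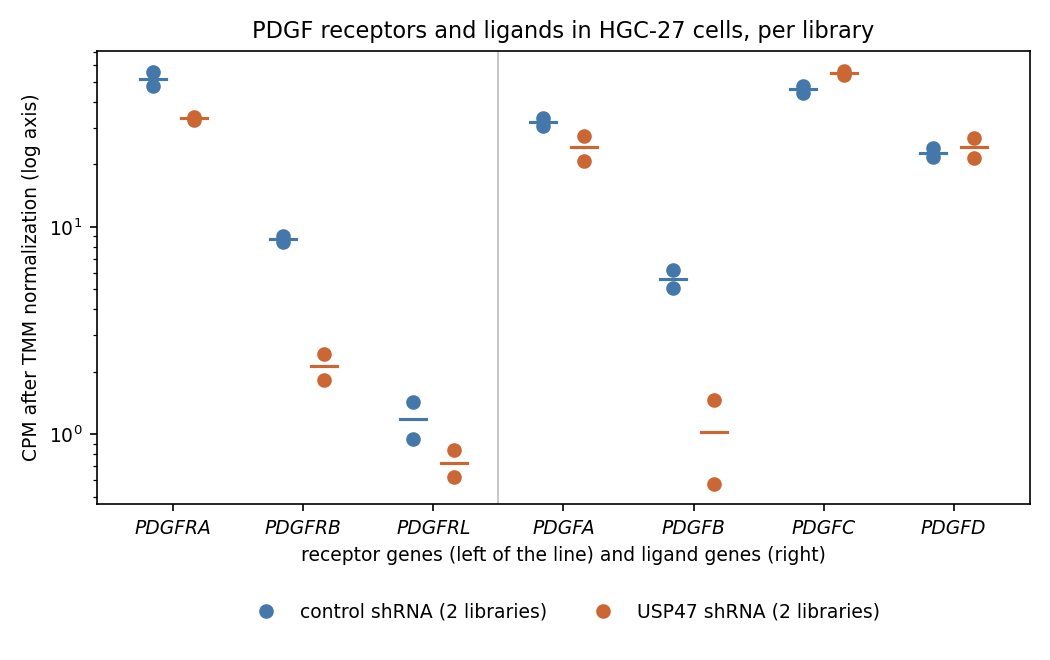
CPM after TMM normalization (log axis) of the 3 receptor and 4 ligand genes in each of the 2 control shRNA and 2 USP47 shRNA libraries; points are libraries and short lines group means. The groups stand far apart for PDGFRB and PDGFB, stand apart by less for PDGFRA, PDGFRL, PDGFA and PDGFC, and overlap for PDGFD.

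Among the receptors, PDGFRB (chromosome 5 of GRCh37, 149493402 to 149535435, minus strand), the receptor tyrosine kinase of pericytes and smooth muscle, had 144 and 177 counts with control shRNA. With USP47 shRNA it had 38 and 35. Both knockdown libraries were far below both controls and close to each other. The level went from 8.76 ± 0.376 CPM (SD, n = 2) to 2.13 ± 0.432 CPM (SD, n = 2), which is 20.9% and 27.9% of the control mean in the 2 knockdown libraries. The log2 fold change was -2.06 (SE 0.21, 95% interval -2.53 to -1.59, adjusted p = 0.000535, edgeR's quasi-likelihood test).

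PDGFRA (chromosome 4 of GRCh37, 55095447 to 55164412, plus strand), the receptor tyrosine kinase that marks many fibroblasts and mesenchymal progenitors, had the most counts of the receptors. It was counted 948 and 932 times with control shRNA and 684 and 488 times with USP47 shRNA. Scaled to library size, these were 55.9 and 47.5 CPM against 32.9 and 34.0 CPM. The knockdown libraries nearly coincided, while the controls lay further from each other, and the groups did not overlap. PDGFRA fell by 0.63 on the log2 scale (SE 0.13, 95% interval of the log2 fold change -0.93 to -0.33, adjusted p = 0.0131, edgeR's quasi-likelihood test). This call depended on 1 library: without control replicate 1 the log2 fold change was -0.51 and the adjusted p was 0.272.

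PDGFRL encodes a receptor-like protein that resembles the extracellular part of PDGFRβ and has no kinase domain. Its counts were 16 and 28 with control shRNA and 13 and 12 with USP47 shRNA. Both knockdown libraries were the lower ones, at 0.625 and 0.836 CPM against 0.943 and 1.43 CPM. The log2 fold change of -0.74 (95% interval -1.56 to 0.079) did not pass edgeR's quasi-likelihood test (adjusted p = 0.195). With so few counts the interval holds both no change and a fall larger than that of PDGFRA. The end of PDGFRL overlaps MTUS1 on the other strand.

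Among the ligands, PDGFB (chromosome 22 of GRCh37, 39619364 to 39640987, minus strand), whose product is the shared ligand of both receptors, was counted 86 and 121 times with control shRNA. It was counted 12 and 21 times with USP47 shRNA. The knockdown libraries were both far below the controls, but they differed from each other more than for PDGFRB, at 0.577 and 1.46 CPM or 10.3% and 26.0% of the control mean. The group levels were 5.62 ± 0.776 CPM (SD, n = 2) and 1.02 ± 0.627 CPM (SD, n = 2), 5.87-fold lower by the fitted value. The log2 fold change was -2.55 (SE 0.33, 95% interval -3.29 to -1.82, adjusted p = 0.00145, edgeR's quasi-likelihood test).

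PDGFA (chromosome 7 of GRCh37, 536895 to 559933, minus strand) encodes the chain that binds only PDGFRα. It was counted 521 and 653 times with control shRNA and 433 and 394 times with USP47 shRNA, or 30.7 and 33.3 CPM against 20.8 and 27.5 CPM. The groups did not overlap, yet the second knockdown library stood closer to the controls than to the first knockdown library. The log2 fold change was -0.41 (SE 0.16, 95% interval -0.76 to -0.064), with an unadjusted p of 0.0247 and an adjusted p of 0.0996 by edgeR's quasi-likelihood test. It was called lower only when that second knockdown library was left out (log2 fold change -0.62, adjusted p = 6.8e-05, edgeR) among the fits that leave out 1 library.

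PDGFC (chromosome 4 of GRCh37, 157681606 to 157892951, minus strand) encodes a latent ligand of PDGFRα. Its counts were 748 and 939 with control shRNA and 1127 and 806 with USP47 shRNA. After scaling, the knockdown libraries, at 54.2 and 56.2 CPM, were above the controls, at 44.1 and 47.9 CPM. The log2 fold change of 0.26 (SE 0.13, 95% interval -0.015 to 0.54) did not pass edgeR's quasi-likelihood test (adjusted p = 0.177). Without USP47 shRNA replicate 1 it was called higher (adjusted p = 0.0487, edgeR), in a fit that called 16.6% of all genes tested higher.

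PDGFD (chromosome 11 of GRCh37, 103777917 to 104035107, minus strand) encodes the latent ligand of PDGFRβ. Its counts were 407 and 424 with control shRNA and 448 and 385 with USP47 shRNA. In CPM the groups overlapped, at 24.0 and 21.6 against 21.5 and 26.8. The log2 fold change was 0.081 (SE 0.15, 95% interval -0.26 to 0.42, adjusted p = 0.750, edgeR's quasi-likelihood test), and it was -0.076 without USP47 shRNA replicate 2. Of the ligands of PDGFRβ, PDGFB thus fell while the interval of PDGFD held no change. DDI1 lies within PDGFD on the other strand, and a long noncoding RNA gene (ENSG00000284633) that overlaps PDGFB on the other strand was not counted in the files. The use of strand in counting was not given, so reads of such overlapping genes cannot be told apart.

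**Figure D2:**
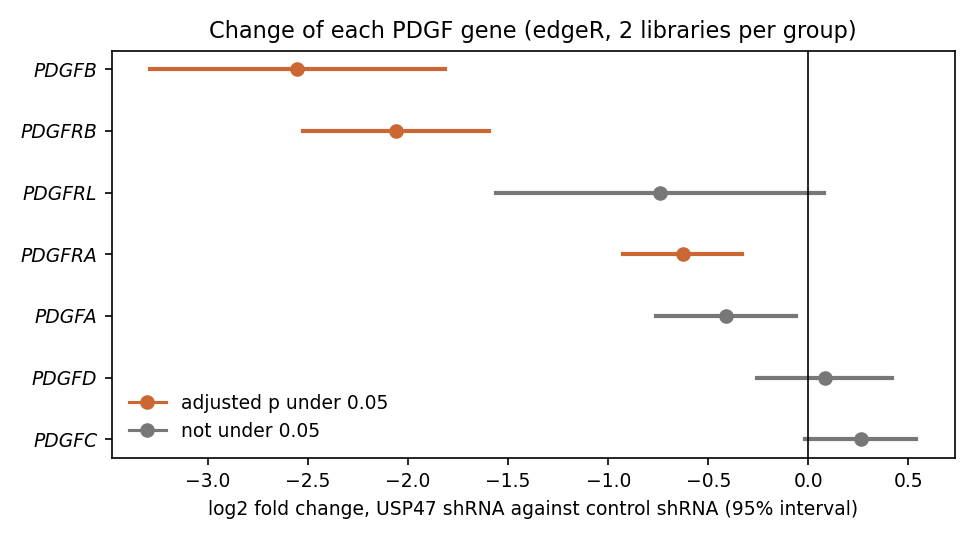
Log2 fold change of each PDGF gene, USP47 shRNA against control shRNA (2 libraries per group), with its 95% interval from edgeR, ordered by size. PDGFB (-2.55) and PDGFRB (-2.06) have intervals wholly below those of the other 5 genes, and the intervals of PDGFRL, PDGFD and PDGFC include 0.

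Levels of different genes were compared as deposited TPM, which accounts for length. In control cells PDGFC (11.2 ± 0.360 TPM) and PDGFA (10.5 ± 0.350 TPM; SD, n = 2, here and below) were the highest. PDGFD (7.35 ± 1.20 TPM) and PDGFRA (7.31 ± 1.49 TPM) followed, and their libraries overlapped. PDGFB (2.03 ± 0.0987 TPM), PDGFRB (1.68 ± 0.0788 TPM) and PDGFRL (0.665 ± 0.134 TPM) were the lowest, with no overlap between neighbours. The control cells therefore held more transcript of the PDGFRα ligands PDGFA and PDGFC than of either receptor.

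With USP47 shRNA, PDGFC (12.5 ± 2.23 TPM) was again first, followed by PDGFA (7.22 ± 0.0693 TPM) and PDGFD (7.07 ± 0.354 TPM), whose libraries overlapped, and by PDGFRA (4.35 ± 0.785 TPM). PDGFRL (0.376 TPM), PDGFRB (0.371 TPM) and PDGFB (0.322 ± 0.141 TPM) came last. These rest on 12 to 38 counts per library, so their order was not resolved. A single identifier (ENSG00000265150) took 20.8% to 24.1% of the TPM of a library, which lowers the TPM of all other genes.

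Ratios within a library do not depend on how libraries were scaled. Per library, PDGFRB counts came to 15.2% and 19.0% of PDGFRA counts under control shRNA, but to 5.56% and 7.17% under USP47 shRNA. The groups did not overlap, and the log2 ratio differed by -1.43 between them. An exact permutation test gave p = 0.333 (two-sided), the smallest value that 2 against 2 libraries allow.

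PDGFB was likewise lower relative to every other ligand. As a share of PDGFA counts it was 16.5% and 18.5% with control shRNA and 2.77% and 5.33% with USP47 shRNA. The difference in the log2 ratio was -2.19 against PDGFA, -2.87 against PDGFC and -2.68 against PDGFD. Between PDGFRB and its ligand PDGFB, the log2 count ratio was 0.74 and 0.55 with control shRNA and 1.66 and 0.74 with USP47 shRNA. The values of this pair lay close together except in the first knockdown library, where PDGFB was lowest. These 4 ratios were not tested.

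**Figure D3:**
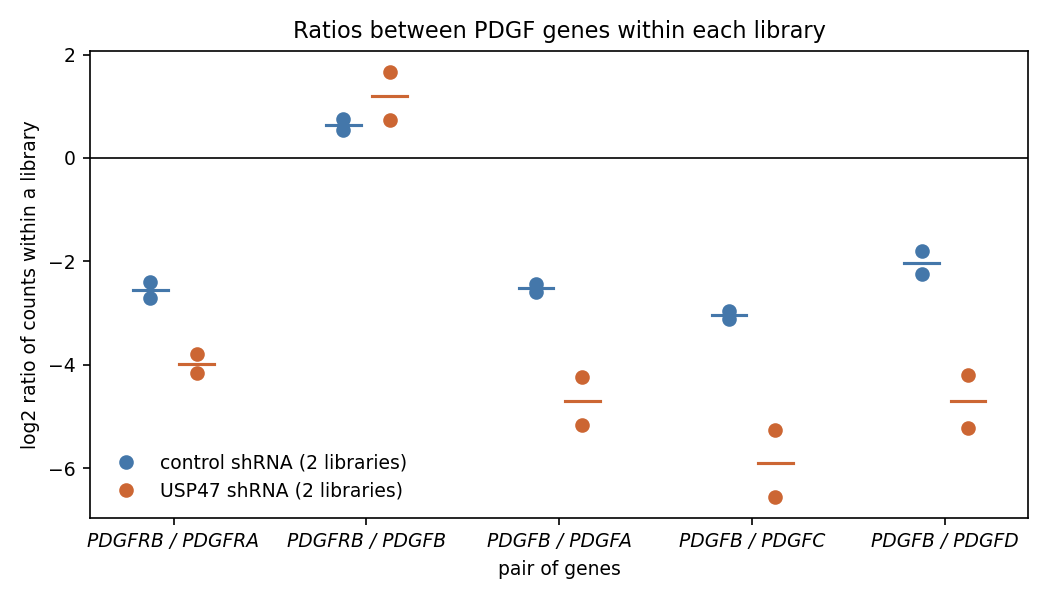
Log2 ratio of the counts of 2 PDGF genes within each library, for 5 pairs; points are libraries (2 per group) and short lines group means. The ratio of PDGFRB to PDGFRA and those of PDGFB to the other ligands are lower in both USP47 shRNA libraries than in both controls, and the ratio of PDGFRB to PDGFB is not.

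Over the 4 libraries, likeness to PDGFRB was measured as the Euclidean distance between profiles of log2 CPM, each centred on its own mean. Among the PDGF genes PDGFB was nearest (0.740), followed by PDGFRA (1.41), PDGFRL (1.42), PDGFA (1.58), PDGFD (2.08) and PDGFC (2.27). Of 12117 protein-coding genes at a mean log2 CPM of 1 or more, the nearest were TRO (0.0398), IL17RD (0.105), EFR3B (0.135), GPR173 (0.174) and SNTB1 (0.205). Their log2 fold changes lay between -2.13 and -1.84. Values near that of PDGFRB follow from the way these genes were picked. These distances describe 4 libraries and carry no test.

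The 10 other genes within 100 kb of PDGFRB were also examined. Of these, 6 were tested and 0 were called by edgeR's quasi-likelihood test or by DESeq2. Over all genes tested, edgeR called 9.56% lower and 6.52% higher. Of the 6, 3 had an unadjusted p under 0.05 (edgeR), for which no share over all genes was determined. CSF1R, the receptor of colony-stimulating factor 1 and a relative of PDGFRB, starts 466 bases beyond the end of PDGFRB on the same strand. It was counted 48 and 44 times with control shRNA and 25 and 25 times with USP47 shRNA (log2 fold change -0.81, SE 0.29, adjusted p = 0.0791, edgeR's quasi-likelihood test). HMGXB3 and the pseudogene RPL7P1 had positive log2 fold changes of 0.30 (adjusted p = 0.150) and 0.39 (adjusted p = 0.0578) by the same test. CSF1R, HMGXB3 and RPL7P1 passed in some fits without 1 knockdown library, in which a larger share of all genes was called as well. The pseudogenes RPS20P4 and ENSG00000248696 and the small RNA gene snoU13 did not pass. CDX1, SLC6A7, CAMK2A and a Y_RNA gene had 0 to 4 counts per library and were not tested.

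The other genes of the pathway were taken from 6 lists of 58 genes, chosen with earlier results of these data known. Of the 58, 52 were tested. Of these 52, 9 were called lower (17.3%, against 9.56% of all genes tested) and 6 higher (11.5%, against 6.52%), with a median log2 fold change of -0.064. Leaving out either control library, fewer of them were called, and the share called lower was near that of all genes tested in the same fits. Without USP47 shRNA replicate 2 the counts were 15 lower and 7 higher of 54, where 15.0% and 12.4% of all genes were called. Without replicate 1 they were 10 lower and 12 higher of 53, where 15.4% and 16.6% of all genes were called. Among 6 related receptors of the same kinase family or of the VEGF receptor family, 5 were tested and 0 were called by edgeR or DESeq2, with 1 (CSF1R) at an unadjusted p under 0.05. KIT was counted 19 and 18 times with control shRNA and 22 and 12 times with USP47 shRNA, and FLT1, FLT3 and KDR had 5 to 22 counts in a library. FLT4, with 5 to 9 counts, was below the filter. The log2 fold changes of the 5 tested relatives lay between -0.81 and 0.097.

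Among 7 proteases that activate PDGF chains, 6 were tested, and 1 was called in each direction. This was 16.7% each way, against 9.56% of all genes tested called lower and 6.52% called higher. PCSK5, a proprotein convertase, fell by 0.60 on the log2 scale (SE 0.16, adjusted p = 0.0294), and PCSK7, another convertase, rose (log2 fold change 0.49, SE 0.13, adjusted p = 0.0256, edgeR's quasi-likelihood test). DESeq2 did not call PCSK5, and PCSK7 was not called with scaling by library size alone. PCSK7 overlaps TAGLN, a marker gene read below, on the other strand. The use of strand in counting was not given, so reads of this overlap cannot be told apart. Among 6 genes for PDGF-binding proteins and coreceptors, the coreceptor gene NRP1 rose from 31.6 to 53.0 CPM (log2 fold change 0.75, adjusted p = 0.00523, edgeR). The matrix protein gene THBS1 fell from 35.2 to 22.6 CPM (log2 fold change -0.64, adjusted p = 0.0107, edgeR). Each was 16.7% of the 6 tested.

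Of 24 genes that act directly at the receptors, all tested, 6 fell and 2 rose. The adaptor gene CRK (log2 fold change -0.87, adjusted p = 0.00257), the kinase gene SRC (-0.86, adjusted p = 0.0176) and the phospholipase gene PLCG1 (-0.55, adjusted p = 0.0177) fell by edgeR's quasi-likelihood test, as did PTPN11, NCK2 and GAB1. DESeq2 called neither NCK2 nor GAB1. The adaptor gene GRB2 (0.52, adjusted p = 0.0316) and the transcription factor gene STAT3 (0.49, adjusted p = 0.0439) rose by the same test. Neither GRB2 nor STAT3 was called without the filter on low counts. Of 6 genes that attenuate the receptors, the phosphatase gene PTPRJ fell (log2 fold change -0.98, adjusted p = 0.00636) and the ubiquitin ligase gene CBLB rose (0.73, adjusted p = 0.00482, edgeR). Each was 16.7% of that list, against 9.56% of all genes tested called lower and 6.52% called higher. Of 9 ligand genes of the related receptors, 5 were tested and only CSF1 was called, higher (0.58, adjusted p = 0.0225, edgeR).

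**Figure D4:**
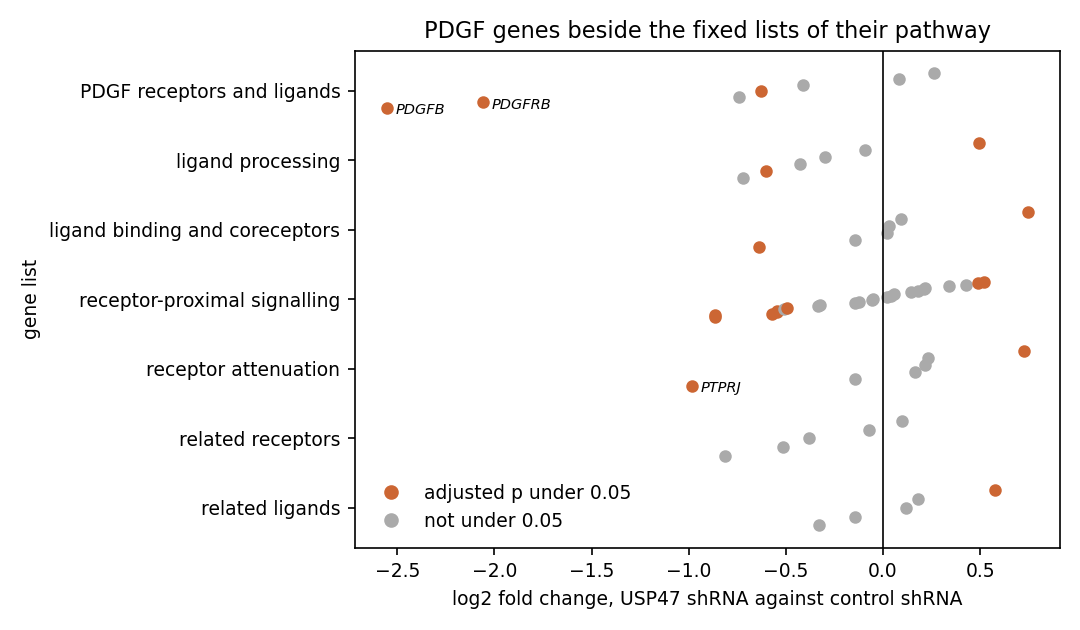
Log2 fold change, USP47 shRNA against control shRNA, of the 7 PDGF genes and of the 52 tested genes of the 6 pathway lists, 1 point per gene, offset upward for legibility. PDGFB and PDGFRB lie below every gene of the pathway lists, of which PTPRJ is the lowest (-0.98).

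Markers of cell types known for PDGF receptors were read beside these values. Of 15 mural cell and fibroblast markers, all tested, 6 fell (COL1A1, COL1A2, ACTA2, MCAM, NOTCH3 and THY1; 40.0%, against 9.56% of all genes) and 1 rose (TAGLN; 6.67%, against 6.52%), with a median log2 fold change of -0.41. The marker lists were chosen with earlier results of these data known, so these shares are no independent result. DESeq2 called 4 of the 15 lower, without COL1A2 and ACTA2, and 1 higher, where 5.93% and 5.27% of all genes were called. Without control replicate 1 or 2, 4 fell (COL1A2, MCAM, NOTCH3 and THY1) and 0 rose, where 3.86% or 4.42% of all genes were called lower. Their summed level was 3795 to 3905 CPM with control shRNA and 3048 to 4170 CPM with USP47 shRNA. COL3A1, the most abundant of them, was higher in both knockdown libraries (1781 and 2416 CPM) than in both controls (1694 and 1711 CPM). Without COL3A1 the sums were 2101 and 2195 CPM with control shRNA against 1267 and 1754 CPM with USP47 shRNA, and the groups did not overlap. That separation thus depended on leaving out a gene that went the other way. Of the 15 markers, both knockdown libraries were below both controls for 8 and above both for 4. THY1, a surface protein of fibroblasts, had a log2 fold change of -2.14 (adjusted p = 0.00047, edgeR), while COL3A1, with 28733 to 37030 counts per library, was not called. Of 8 epithelial markers, 4 had at most 10 counts in every library, KRT18 and KRT19 had 0 or 1, and the sum was 4.95 to 6.63 CPM against 4.23 to 5.71 CPM. Epithelial markers were thus low or nearly absent in these libraries of a gastric carcinoma line, CLDN4 being the highest at 41 to 77 counts. Without CLDN4 the epithelial sums of the groups narrowly did not overlap. The lower control was then at 2.48 CPM and the higher knockdown library at 2.44 CPM. Of the 4 tested, EPCAM, with 12 and 11 counts against 3 and 3, was called lower (log2 fold change -1.84, adjusted p = 0.0416, edgeR). Of 6 endothelial markers, PECAM1 was not matched to an identifier. The other 5 summed to 3.57 to 3.89 CPM against 2.40 to 2.58 CPM, and leukocyte markers to 1.53 to 2.19 CPM against 1.88 to 1.95 CPM. Of 2 endothelial markers tested, CLDN5, with 27 and 29 counts against 17 and 5, was called lower (log2 fold change -1.30, adjusted p = 0.0444, edgeR), and of 2 leukocyte markers tested 0 were called by edgeR or DESeq2 and 0 had an unadjusted p under 0.05. DESeq2 called neither EPCAM nor CLDN5, and neither was called without control replicate 1 or without control replicate 2. CLDN5 was also not called without USP47 shRNA replicate 2, nor EPCAM without replicate 1. The part of these marker genes in the changes of PDGFRB and PDGFB was not tested.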

How the data were processed

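RNA-Seq of HGC-27 cells comprised 2 control shRNA and 2 USP47 shRNA libraries, grouped by the submitters' labels. The authors mapped reads to hg19 with STAR 2.7.5c and removed duplicates with SAMtools 1.9, and the submitters' processing notes also name featureCounts and DESeq2 1.26.0. The gene annotation and the strand setting were not given in the sources used here, and the labels and the methods name different library kits. The authors deposited raw counts per gene, with FPKM and TPM derived from them. Removal of duplicates without molecular identifiers lowers high counts most.

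Of 63568 identifiers, 55665 matched a symbol. Counts were tested with edgeR 4.0.16 in R 4.3.3 (filterByExpr, TMM, robust quasi-likelihood fit, both directions, Benjamini-Hochberg adjustment), which was checked on simulated data. Deposited TPM served for levels between genes, and FPKM as an alternative. No pseudocount entered the ratios. The depth of 15649899 to 20140273 counts leaves genes with few counts, such as PDGFRL, imprecise. Gene positions are from GRCh37. Replicate numbers were not taken as pairs. Alternatives covered DESeq2 1.42.0, scaling, filters, a replicate block and each library left out.

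The 7 genes and all lists were chosen with earlier results of these data known. Genes named beside USP47 and the 7 are, per pathway list, up to 3 called genes per direction with the smallest p, all related receptors, tested neighbours of PDGFRB within 100 kb, and the 5 genes nearest to its profile. PTPN11, NCK2, GAB1, the untested neighbours and single marker genes were named after their values were seen.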

Additional observations from a re-analysis of the deposited data

How the results depend on the processing

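PDGFRB and PDGFB were called lower by edgeR under every alternative run, with log2 fold changes of -2.25 to -1.83 and -3.27 to -1.93. Leaving out each library gave USP47 log2 fold changes of -1.75 to -1.01. For PDGFD this range was -0.076 (without USP47 shRNA replicate 2) to 0.24 (without replicate 1). With the replicate number as a block, 1 of the 7 genes was called higher (PDGFC, adjusted p = 0.0410, edgeR) and 4 lower, PDGFA being added (adjusted p = 0.00198), and 7422 genes were called in all against 3527. The numbers correlated at 0.213 between groups, and no source says that they mark a shared culture. Leaving out each library, 0 to 1 of the 7 were called higher (PDGFC without USP47 shRNA replicate 1, adjusted p = 0.0487) and 2 to 4 lower, in fits that called 1.38% to 16.6% of all genes higher and 3.86% to 15.4% lower. PDGFA was called lower without USP47 shRNA replicate 2 (adjusted p = 6.8e-05). Of the pathway genes, 2 to 15 were then called lower, with 2 without either control library and 15 without USP47 shRNA replicate 2, and 0 to 12 were called higher, with 12 without USP47 shRNA replicate 1. In these fits the lone library is assumed to vary like the other group. CSF1R was called lower, and RPL7P1 and HMGXB3 higher, with the block. DESeq2 gave no adjusted p for PDGFRL.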
